A study of Mus musculus with 6 samples.

Results

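The mitosis and spindle genes are 45 genes chosen by name for their work in G2 and M phase. They comprise G2/M cyclins with CDK1 and its activators, mitotic kinases, and genes of the kinetochore, spindle checkpoint, spindle and cytokinesis. All 45 were found by symbol among the 36870 symbols of the deposited table, and all 45 were among the 13266 genes whose mean over the 6 libraries reached 0.1 RPKM and which were therefore tested. RPKM is the number of reads on a gene divided by its length and by the reads mapped in the library. RNA-seq was performed on bone marrow mesenchymal stem cells (BMMSCs) of C57BL/6 mice, the plastic-adherent cells that remained after marrow from femurs and tibias was plated and non-adherent cells were removed. There were 3 control libraries and 3 libraries of cells given siRNAs against both Tet1 and Tet2 (siTet1/Tet2), 2 enzymes that oxidise methylated cytosine in DNA. The labels and the siRNA protocol describe the controls as treated with a non-targeting siRNA, whereas the RNA-sequencing methods call them vehicle. The labels give passage 2 and the methods passage 1, the age of the mice was not given in the sources used here, and the knockdown was transient. Each library is a bulk sample of whatever adhered. Neither source says whether the libraries of a group came from separate cultures or animals, so the p-values measure only the spread between these libraries, which may be technical.

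A dividing cell enters mitosis when cyclin B binds CDK1 and CDC25 phosphatases remove the inhibitory phosphates from the pair. Chromosomes attach to the spindle through kinetochores built on CENP-A chromatin, a checkpoint holds the cell until every kinetochore is attached, and CDC20 then activates the anaphase-promoting complex (APC/C), which marks securin and cyclin B for destruction so that sister chromatids part and the cell cleaves. Most of these genes are transcribed in G2 and M phase, through promoters that often carry a cell cycle genes homology region (CHR), read by the DREAM complex and by MYBL2 and FOXM1, and CCAAT boxes bound by NF-Y.

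The targeted genes were read first. Tet2 was at 2.57, 4.08 and 3.71 RPKM in the controls and at 0.358, 0.238 and 0.202 RPKM after siTet1/Tet2, a log2 fold change of -1.80. Tet1 was too low to be tested (at most 0.098 RPKM in a control library and 0.01 RPKM in a knockdown library), and Tet3, which was not targeted, ranged from 5.91 to 8.80 RPKM in the controls and from 6.96 to 8.48 RPKM in the knockdown. Cell type markers differed between the groups. By the test given below, 14.7% of all genes tested were higher and 29.8% lower, and the small counts in these lists are to be read beside those shares. All 10 tested genes of a list of 12 stromal markers were lower after siTet1/Tet2, and their summed level was 1495 to 2049 RPKM in the controls and 206 to 430 RPKM in the knockdown, with Lum and Lepr near 0 in every library. The log2 fold changes of the 10 ran from -3.10 (Postn) to -1.23 (Dcn). Of 7 BMMSC surface markers, 4 were lower, from Ly6a (log2 fold change -3.20) to Eng (-0.57), and Thy1 was near 0 throughout (at most 0.146 RPKM). Of 12 macrophage markers, 6 were higher and 3 lower, and their sum was 5832 to 7597 RPKM in the controls and 12799 to 15715 RPKM after knockdown. Most of that sum was Lyz2 (log2 fold change 1.36), and the other markers summed to 2285 to 2583 RPKM and 2956 to 3059 RPKM. Fcgr1 had the largest decrease of that list (-1.93). Of 11 progenitor and neutrophil markers only 4 were tested (1 higher, S100a8, and 1 lower, Camp; sums of 4.51 to 5 RPKM and 11.0 to 17.4 RPKM, or 2.68 to 2.98 RPKM and 1.35 to 1.83 RPKM without S100a8), with S100a9 at the lowest value of the table in all 6 libraries. Of 12 erythroid, lymphoid, mast cell and endothelial markers 3 were tested (1 higher, Pecam1, and 1 lower, Kdr; sums of 2.13 to 2.70 RPKM and 1.35 to 1.5 RPKM), with Hbb-bt and Cd3g at the lowest value in every library. The part of these marker shifts in the results on mitosis genes was not tested, and in bulk samples a change in the number of dividing cells cannot be told apart from a change in RNA per cell.

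The 45 genes were split between a minority that rose and a majority that did not pass the test. With limma on log2(RPKM + 1) and Benjamini-Hochberg adjustment over all 13266 genes, 13 genes (28.9%) were higher after siTet1/Tet2 at an adjusted p under 0.05, 2 (4.44%) were lower and 30 did not pass. Over all genes tested, 14.7% were higher and 29.8% were lower, and no test of this difference in shares was made. The 13 higher genes were Ccnb2, Cenpa, Mki67, Ube2c, Kif20a, Cdc20, Cdca3, Birc5, Racgap1, Prc1, Bub1b, Kif2c and Cdc25b. The 2 lower genes were Pttg1 and Ndc80. By a stricter rule, an unadjusted p under 0.05 with a fold change over 2 on the log2(RPKM + 1) scale, none of the 45 genes (0 genes) was altered, against 6.58% of all genes. Ccnb2 lay just under that limit, with a log2 fold change of 0.99 (1.03 with a pseudocount of 0.1) and a ratio of the mean RPKM of 2.06, so the 0 depends on the pseudocount and the scaling.

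The shift of the whole set was small. The log2 fold change was positive for 31 genes and negative for 14, whereas over all genes tested it was positive for 5151 and negative for 8115. Its median was 0.08 for the mitosis genes and -0.09 for all genes, which puts the mitosis genes 0.17 above all genes on the log2 scale. All 3 knockdown libraries lay above all 3 controls for 15 genes and below them for 3, against 19.8% and 35.9% of all genes. In the deposited scaling, the summed RPKM of the 45 genes was 663, 675 and 698 in the controls and 759, 751 and 744 after siTet1/Tet2, without overlap. The summed RPKM of all rows was 432290, 422718 and 393567 in the controls and 440433, 439365 and 423889 after siTet1/Tet2. Relative to these totals the groups overlap, with control library 3 above every knockdown library. Fold changes on this scale understate those of genes with low RPKM.

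The counts depended on scaling and on single libraries. With quantile normalization, which moved the median of all genes from -0.09 to 0.06, 19 mitosis genes were higher and 1 was lower, while 27.2% of all genes were higher and 19.8% lower. When each library was rescaled to the same sum, 7 were higher and 2 lower, and 11.5% and 33% of all genes. Rescaling to the same sum lost Cdc25b, Bub1b, Kif2c, Prc1, Racgap1 and Mki67, and dropping the minimum on RPKM lost Birc5, Ube2c, Cdca3, Racgap1, Mki67 and Ndc80. The median of the mitosis genes stayed positive in these 2 scalings, at 0.22 and 0.025. Without siTet1/Tet2 library 1, control library 2 or siTet1/Tet2 library 2 the number of higher mitosis genes was 7, 8 and 8 (11.1%, 11.2% and 10.6% of all genes). The number of lower ones was 4 without control library 1 and 1 without siTet1/Tet2 library 2 (27.9% and 22.7% of all genes). With the replicate number as a block, 14 were higher and 4 lower, against 16.9% and 33.7% of all genes. The block added Kif23 to the higher genes and Cenpe and Top2a to the lower ones. Only Ccnb2, Cenpa, Cdc20, Kif20a and Pttg1 passed in the same direction in the reported analysis and in each of the 18 alternatives.

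**Figure D1:**
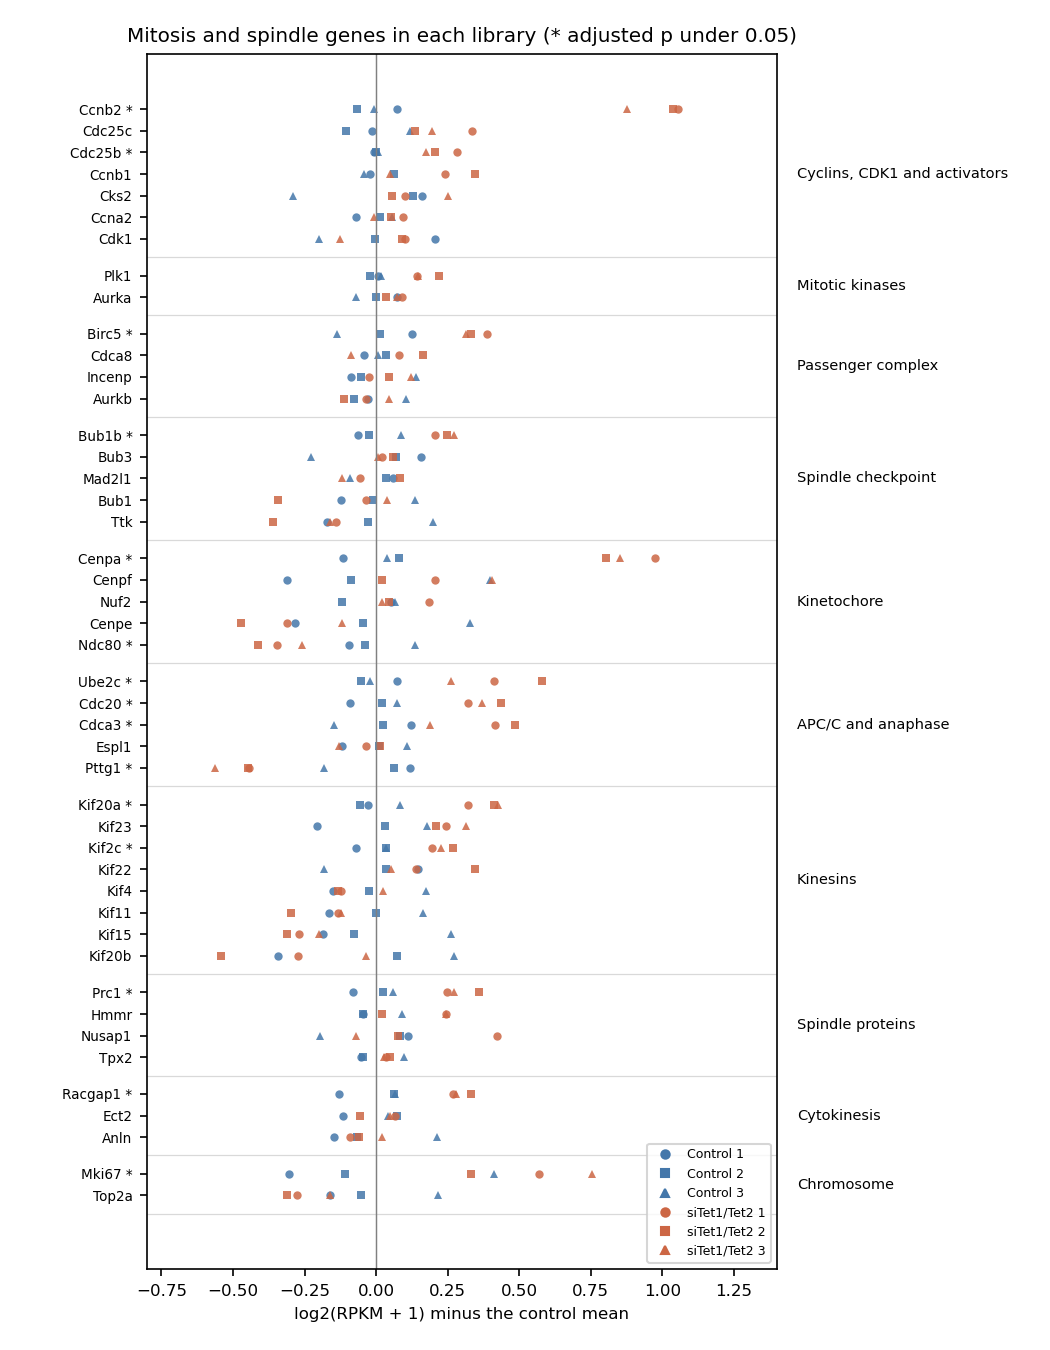
The 45 mitosis and spindle genes, grouped by role and ordered by fold change, with log2(RPKM + 1) minus the control mean on the x axis. Each point is a library (blue, control; orange, siTet1/Tet2; shapes give the replicate number) and an asterisk marks an adjusted p under 0.05; Ccnb2 and Cenpa stand apart from all other genes, and most genes have overlapping groups.

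Promoters are shown for 6 genes chosen by their calls, so the contrast between them is partly set by that choice. They comprise Ccnb2, Cenpa and Cdc20, which rose, Cdk1, which did not pass the test, and Pttg1 and Ndc80, which fell. Mki67, Ube2c and Kif20a, which are not shown, rose more than Cdc20. Each sequence is the 250 bases before the annotated start of transcription, from RefSeq on GRCm38.p6, written 5′ to 3′ on the strand of the gene. Capitals mark TTTGAA or TTTAAA (the CHR core) and CCAAT (the NF-Y box), each searched on both strands, so that CCAAT on the opposite strand reads ATTGG. The 2 motifs overlapped in 1 of the windows searched for the mitosis genes.
Ccnb2 (chr9:70421555-70421804, minus strand): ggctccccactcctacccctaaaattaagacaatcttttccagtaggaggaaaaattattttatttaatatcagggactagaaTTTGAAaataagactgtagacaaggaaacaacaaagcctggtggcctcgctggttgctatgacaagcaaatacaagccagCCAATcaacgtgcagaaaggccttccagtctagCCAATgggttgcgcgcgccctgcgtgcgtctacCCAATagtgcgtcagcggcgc
Cenpa (chr5:30666636-30666885, plus strand): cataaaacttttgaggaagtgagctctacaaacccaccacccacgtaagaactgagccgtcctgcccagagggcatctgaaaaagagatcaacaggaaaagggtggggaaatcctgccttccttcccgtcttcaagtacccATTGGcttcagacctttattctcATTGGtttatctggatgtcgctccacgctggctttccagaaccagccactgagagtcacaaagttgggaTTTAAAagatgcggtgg
Cdc20 (chr4:118437344-118437593, minus strand): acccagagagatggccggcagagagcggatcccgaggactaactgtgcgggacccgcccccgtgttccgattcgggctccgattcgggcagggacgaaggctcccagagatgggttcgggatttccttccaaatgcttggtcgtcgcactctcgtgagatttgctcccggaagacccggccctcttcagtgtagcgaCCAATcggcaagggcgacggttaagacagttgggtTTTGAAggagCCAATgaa
Cdk1 (chr10:69352913-69353162, minus strand): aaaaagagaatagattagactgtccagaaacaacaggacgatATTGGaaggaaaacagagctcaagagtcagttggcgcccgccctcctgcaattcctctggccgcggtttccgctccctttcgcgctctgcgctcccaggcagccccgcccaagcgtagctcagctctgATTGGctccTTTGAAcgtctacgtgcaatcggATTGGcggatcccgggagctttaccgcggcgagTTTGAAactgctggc
Pttg1 (chr11:43425982-43426231, minus strand): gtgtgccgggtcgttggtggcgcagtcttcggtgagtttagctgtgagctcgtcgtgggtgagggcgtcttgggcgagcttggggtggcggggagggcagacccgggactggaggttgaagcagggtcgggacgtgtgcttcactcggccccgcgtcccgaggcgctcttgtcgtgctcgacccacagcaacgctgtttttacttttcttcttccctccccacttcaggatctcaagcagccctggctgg
Ndc80 (chr17:71526858-71527107, minus strand): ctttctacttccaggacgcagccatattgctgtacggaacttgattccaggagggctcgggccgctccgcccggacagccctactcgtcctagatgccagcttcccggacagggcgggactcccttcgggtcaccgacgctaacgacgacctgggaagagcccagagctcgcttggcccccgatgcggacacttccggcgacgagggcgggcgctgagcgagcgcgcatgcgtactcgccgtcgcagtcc
Ccnb2 shows 3 CCAAT boxes with 1 CHR core upstream of them, and has another CHR core that begins at base 5 of the transcript. Cenpa and Cdc20 each show 2 CCAAT boxes and a CHR core that begins 17 and 18 bases before the start. Cdk1 shows 3 CCAAT boxes and 2 CHR cores. Neither motif occurs in the 250 bases shown for Pttg1 and Ndc80, though Ndc80 has CHR cores at bases 23 and 30 of the transcript. A match to these letters is a description and not a bound site, and its lack says only that the letters are not in this window.

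Both motifs were common in the promoters of the mitosis genes. A window from 250 bases before to 50 bases after the start was found for 39 of the 45 genes (42 windows, since 3 genes have 2), and Ccna2, Kif20a, Incenp, Aurkb, Cdc25c and Tpx2 had none. A CHR core was in 83.3% of these windows, against 19.2% of the 12666 windows of all genes tested and 27.6% of all 32851 windows. CCAAT was in 76.2%, against 37.5% and 37.4%. Both were in 69.0%, against 7.53% and 10.7%. Windows of other mitosis genes held both in 35.7% of cases and those of DNA replication genes in 15.8%. A CHR core began in the last 50 bases before the start in 33.3% of the mitosis windows and in the first 50 bases of the transcript in 45.2%, against 3.07% and 2.0% for all genes tested, while each bin further upstream held one in 7.14% to 9.52% of the mitosis windows. CCAAT began in the last 50 bases before the start in 50% (10.8% of all genes tested), between 100 and 51 bases before it in 47.6% (14.9%) and in the 50 bases before those in 19.0% (8.92%). Of the 26 genes with both motifs, 9 were higher and 0 lower (median log2 fold change 0.17). Of the 13 without the pair, 3 were higher (Birc5, Kif2c and Cdc25b) and 2 lower, with a median of -0.03. These counts are small and no test of their difference was made. Of the 880 other genes tested with both motifs, 14.7% were higher and 27.8% lower, close to the shares over all genes. The fold changes of the 26 genes ran from -0.30 (Cenpe) to 0.99 (Ccnb2), and they include Cdk1, Ect2 and Aurka, which did not pass the test.

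**Figure D2:**
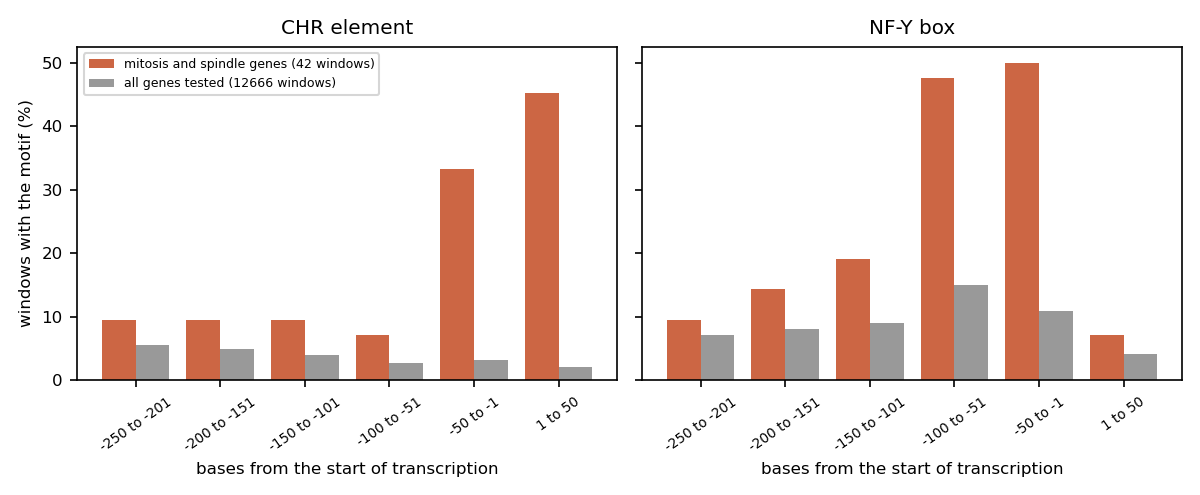
Share of promoter windows (%) in which a CHR element or an NF-Y box begins, in bins of 50 bases from the start of transcription, for the 42 windows of the mitosis genes (orange) and the 12666 windows of all genes tested (grey). CHR elements of the mitosis genes are concentrated within 50 bases of the start on either side, and NF-Y boxes in the 100 bases before it.

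Among the cyclins, CDK1 and its activators, Ccnb2 rose about 2-fold, and neither Cdk1 nor the other cyclin genes passed the test. Ccnb2 encodes cyclin B2, an activating subunit of CDK1. It was at 15.3, 13.8 and 14.4 RPKM in the controls and at 31.3, 30.9 and 27.5 RPKM after siTet1/Tet2. Every knockdown library was far above every control, and this was the largest increase of the 45 genes (log2 fold change 0.99, standard error 0.07, adjusted p = 3.08e-05; ratio of the means 2.06). Ccnb1, which encodes cyclin B1, was at 6.9, 7.37 and 6.79 RPKM and then at 8.47, 9.19 and 7.29 RPKM. The third knockdown library lay within the control range, and the difference did not pass (log2 fold change 0.21, standard error 0.10, adjusted p = 0.108). Ccnb1 passed as higher in 5 of the 18 alternatives. These were the fit without siTet1/Tet2 library 3 (adjusted p = 0.037), median ratio scaling (0.0481), quantile normalization (0.0228), and the length adjustment with and without the block. In its transcripts, 42.1% of the 50-base stretches also occur in other genes, chiefly the pseudogene Ccnb1-ps. Cdk1, the kinase itself, was at 33.0, 28.4 and 24.7 RPKM in the controls and 30.7, 30.5 and 26.1 RPKM after knockdown. The controls spanned the knockdown values, and the difference did not pass (log2 fold change 0.02, standard error 0.11, adjusted p = 0.885). Ccna2, which encodes cyclin A2 and acts from S phase onward, overlapped as well, with 26.9, 28.6 and 29.5 RPKM against 30.2, 29.4 and 28.2 RPKM (log2 fold change 0.05, standard error 0.06, adjusted p = 0.577). The CDK1-activating phosphatase gene Cdc25b rose from 12.0 ± 0.0650 to 14.2 ± 0.580 RPKM (SD, n = 3; adjusted p = 0.0268), although it did not pass without either siTet1/Tet2 library 1 or 2 or control library 1 or 2 (adjusted p of 0.108, 0.075, 0.0595 and 0.080). Its paralog Cdc25c was at 3.92 and 4.73 RPKM on average with no overlap between groups (adjusted p = 0.101, passing in 4 of the 18 alternatives), and Cks2, a small CDK-binding protein, at 6.80 and 7.51 RPKM (adjusted p = 0.427). In this role 2 of 7 genes were therefore higher and none (0 genes) lower, against 14.7% and 29.8% of all genes tested. The counts by role, here and below, are small, and no test of them was made.

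**Figure D3:**
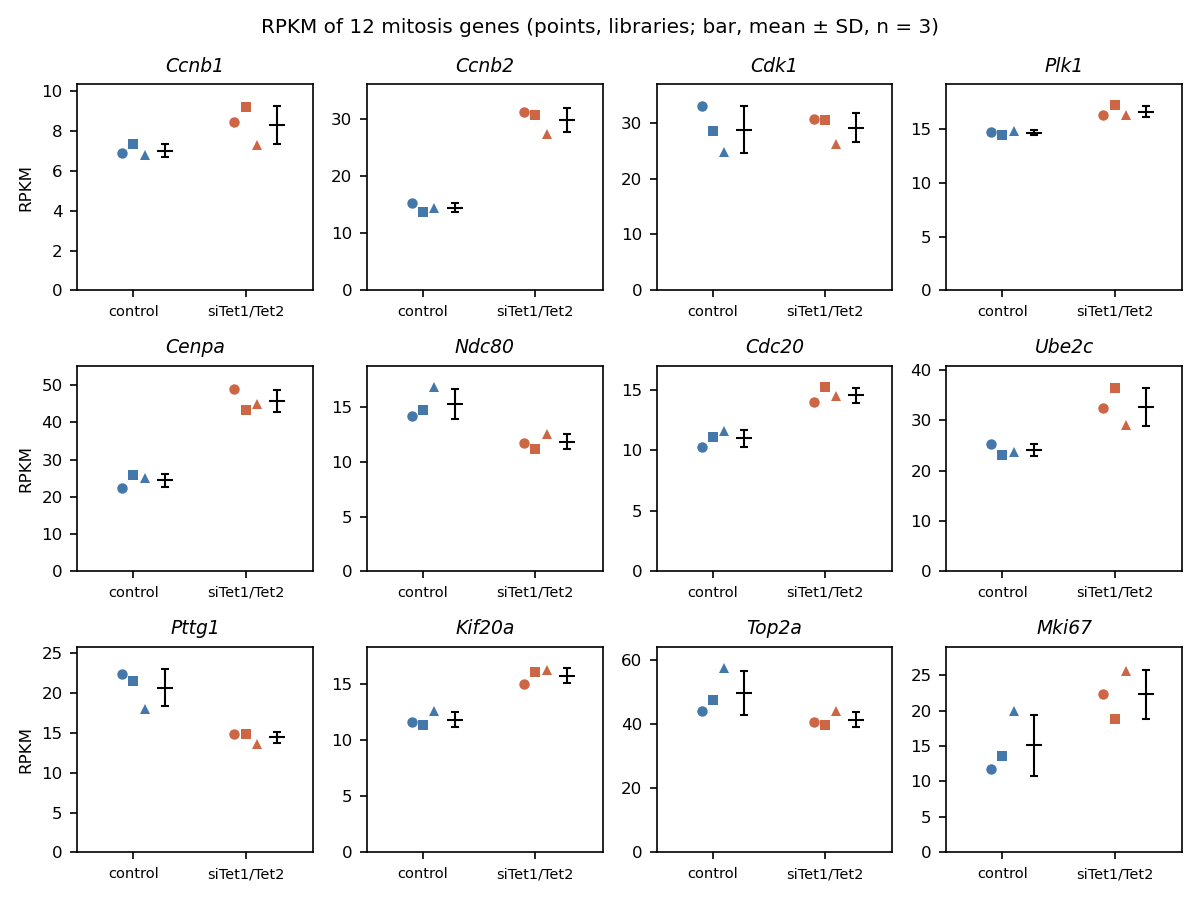
RPKM of 12 mitosis genes in each library, on linear axes from 0 (points, libraries, with shapes for the replicate number; bars, mean ± SD, n = 3). Ccnb2 and Cenpa separate most widely, Cdk1 and Ccnb1 overlap, and Pttg1 and Ndc80 are lower after siTet1/Tet2.

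Of the mitotic kinases and the chromosomal passenger complex, only Birc5 passed among 6 genes in the deposited scaling. Over all genes tested, 14.7% were higher and 29.8% lower. Plk1, a kinase that acts from centrosome maturation to cytokinesis, was at 14.7, 14.4 and 14.9 RPKM in the controls and 16.3, 17.3 and 16.3 RPKM after siTet1/Tet2. The groups did not overlap, yet the small difference missed the threshold (log2 fold change 0.17, standard error 0.06, adjusted p = 0.0583). It passed as higher in 5 of the 18 alternatives, among them median ratio scaling (adjusted p = 0.0143) and quantile normalization (adjusted p = 0.00477), and its adjusted p ran up to 0.272. Aurka, the spindle pole kinase, was at 14.7, 13.9 and 13.2 RPKM and then 14.9, 14.3 and 14.7 RPKM (log2 fold change 0.07, standard error 0.07, adjusted p = 0.463). It passed as higher only with quantile normalization (adjusted p = 0.0389). The passenger complex corrects faulty chromosome attachments and joins Aurora B to survivin, borealin and INCENP. Its kinase gene Aurkb was at 13.0, 12.5 and 14.4 RPKM in the controls and at 12.9, 12.2 and 13.7 RPKM after knockdown. These values overlapped (log2 fold change -0.03, standard error 0.08, adjusted p = 0.75). Birc5, which encodes survivin, was at 9.06, 8.32 and 7.39 RPKM in the controls and 11.1, 10.6 and 10.5 RPKM after knockdown. It rose in every knockdown library above the highest control (log2 fold change 0.34, standard error 0.09, adjusted p = 0.0131), but did not pass without siTet1/Tet2 library 1 (adjusted p = 0.0526). The scaffold gene Incenp (33.3 and 34.3 RPKM on average) and the borealin gene Cdca8 (24.2 and 25.2 RPKM) had overlapping groups and did not pass. Subunits of this complex thus did not all show the same call.

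Of 5 checkpoint genes, 1 was higher and 0 were lower, against 14.7% and 29.8% of all genes tested. Bub1b encodes BubR1, a part of the inhibitor of the APC/C, and was at 11.9, 12.2 and 13.3 RPKM in the controls and 14.6, 15.0 and 15.3 RPKM after siTet1/Tet2. It rose without overlap (log2 fold change 0.24, standard error 0.07, adjusted p = 0.0236), a call that was lost when any library other than control library 3 was left out (adjusted p of 0.0552 to 0.0819). Mad2l1, which encodes MAD2, the partner that BubR1 needs in that inhibitor, was at 20.8, 20.5 and 18.7 RPKM and at 19.1, 21.2 and 18.3 RPKM. The 2 sets of values interleaved (log2 fold change -0.03, standard error 0.08, adjusted p = 0.768). The kinase genes Bub1 (8.01 and 7.35 RPKM on average) and Ttk (6.05 and 5.03 RPKM) had lower means after knockdown, and Bub3, a kinetochore adaptor, had nearly equal ones (44.0 and 44.7 RPKM), none past the threshold.

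The kinetochore held the widest contrast within a role, with 1 gene higher and 1 lower of 5 (14.7% and 29.8% of all genes tested). Cenpa encodes the histone H3 variant that marks the centromere. It was at 22.4, 25.8 and 25.0 RPKM in the controls and at 48.9, 43.3 and 44.9 RPKM after siTet1/Tet2. This near doubling was the second largest increase of the 45 genes (log2 fold change 0.88, standard error 0.08, adjusted p = 5.80e-05; ratio of the means 1.87). Ndc80, the microtubule-binding subunit of the outer kinetochore, was at 14.2, 14.8 and 16.8 RPKM and at 11.7, 11.2 and 12.6 RPKM. It fell, with every knockdown library under the lowest control (log2 fold change -0.34, standard error 0.08, adjusted p = 0.0123), and did not pass without siTet1/Tet2 library 2 (adjusted p = 0.0549), with quantile normalization (adjusted p = 0.0706) or without a minimum on RPKM (adjusted p = 0.0773). Nuf2, its direct partner in the NDC80 complex, was at 14.9 ± 1.13 and 15.9 ± 1.04 RPKM (SD, n = 3) and did not pass (adjusted p = 0.431). Cenpe, a kinesin of the outer kinetochore, was at 6.41, 7.73 and 10.3 RPKM in the controls and 6.27, 5.50 and 7.31 RPKM after knockdown. Its groups overlapped (log2 fold change -0.30, standard error 0.16, adjusted p = 0.163), and it passed as lower with the replicate block (adjusted p = 0.0416) and without control library 1 (adjusted p = 0.0494). Cenpf, a large protein of the outer kinetochore, had the lowest level of the 45 genes, 2.53 ± 0.913 and 3.02 ± 0.534 RPKM (SD, n = 3), and did not pass (adjusted p = 0.378). It passed as higher in 3 of the 18 alternatives, without control library 3 (adjusted p = 0.0396) and after length adjustment, alone or with the block.

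Of 5 genes of the APC/C and of anaphase, 3 were higher and 1 was lower (14.7% and 29.8% of all genes tested). Cdc20, the mitotic activator of the APC/C, was at 10.2, 11.1 and 11.6 RPKM in the controls and at 14.0, 15.2 and 14.5 RPKM after siTet1/Tet2. It rose without overlap (log2 fold change 0.38, standard error 0.07, adjusted p = 0.00419; ratio of the means 1.32), with 11.6% of its 50-base stretches also in other transcripts, chiefly those of Gm7856. Ube2c, the ubiquitin-conjugating enzyme that works with the APC/C, was at 25.4, 23.2 and 23.7 RPKM and at 32.4, 36.5 and 29.1 RPKM. It rose as well (log2 fold change 0.42, standard error 0.09, adjusted p = 0.00544), with 17.8% of its 50-base stretches also in other transcripts, chiefly those of Tnnc2. Pttg1 encodes securin, the inhibitor of separase that the APC/C destroys. It was at 22.4, 21.5 and 18.0 RPKM in the controls and at 14.8, 14.8 and 13.6 RPKM after knockdown. This was the largest decrease of the 45 genes, without overlap (log2 fold change -0.49, standard error 0.09, adjusted p = 0.00316; ratio of the means 0.698). Espl1, which encodes separase, the protease that securin holds in check, was at 4.11 ± 0.400 and 3.93 ± 0.244 RPKM (SD, n = 3; adjusted p = 0.694). Cdca3, an F-box-like protein that promotes entry into mitosis, rose from 15.1 ± 1.48 to 19.7 ± 2.16 RPKM (SD, n = 3; adjusted p = 0.0198). That call was lost without control library 2, siTet1/Tet2 library 1 or siTet1/Tet2 library 2 (adjusted p of 0.0524, 0.0704 and 0.082).

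Of 8 kinesins, the motors of the spindle and midzone, 2 rose and none (0 genes) fell (14.7% and 29.8% of all genes tested). Kif20a, a motor of the central spindle needed for cytokinesis, rose from 11.9 ± 0.663 to 15.8 ± 0.664 RPKM (SD, n = 3; log2 fold change 0.39, adjusted p = 0.00311). Its transcripts share 31.2% of their 50-base stretches with other genes, chiefly the overlapping gene Cdc23, so its reads may be mixed. Kif2c, which depolymerises microtubules at the centromere, rose from 8.23 ± 0.387 to 9.82 ± 0.273 RPKM (SD, n = 3; adjusted p = 0.0354), a call lost without any single library other than control library 3 (adjusted p of 0.0721 to 0.12). Kif11, the motor that pushes spindle poles apart, was at 9.19, 10.4 and 11.8 RPKM in the controls and 9.42, 8.30 and 9.49 RPKM after siTet1/Tet2. The groups overlapped (log2 fold change -0.18, standard error 0.10, adjusted p = 0.177). Kif20b, a midzone motor, was at 5.37, 7.50 and 8.75 RPKM and at 5.70, 4.56 and 6.89 RPKM, again with overlap (log2 fold change -0.28, standard error 0.18, adjusted p = 0.231). Kif15, which can stand in for Kif11 in keeping the spindle bipolar, was lower in every knockdown library but did not pass (5.97 and 4.77 RPKM on average, adjusted p = 0.119). Kif23, the motor of the centralspindlin complex, was higher in every knockdown library, at 13.4 and 16.1 RPKM on average (adjusted p = 0.0727). It passed in 6 of the 18 alternatives, among them the replicate block (adjusted p = 0.0331) and the fit without control library 3 (adjusted p = 0.0139). The others were median ratio scaling, quantile normalization and the length adjustment with and without the block. The chromosome-arm motors Kif4 (7.45 and 6.99 RPKM) and Kif22 (10.8 and 12.3 RPKM) did not pass, though Kif22 did as higher with the length adjustment and the block together. The motors with higher means and those with lower means were 4 each.

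Spindle and cytokinesis proteins gave 2 higher genes among 7, where 14.7% of all genes tested were higher and 29.8% lower. Prc1, which bundles the antiparallel microtubules of the midzone, was at 16.7, 18.1 and 18.6 RPKM in the controls and 21.3, 23.1 and 21.7 RPKM after siTet1/Tet2. It rose without overlap (log2 fold change 0.29, standard error 0.07, adjusted p = 0.00909), with 26.6% of its 50-base stretches shared, chiefly with Rccd1. The call was lost when libraries were rescaled to the same sum (adjusted p = 0.056). Tpx2, which activates Aurora A on the spindle, was at 20.2, 20.4 and 22.6 RPKM and at 21.6, 21.8 and 21.5 RPKM. All 3 knockdown values lay inside the control range (log2 fold change 0.04, standard error 0.07, adjusted p = 0.676). The microtubule-binding genes Nusap1 (11.3 and 12.7 RPKM on average) and Hmmr (9.11 and 10.4 RPKM) did not pass. Hmmr passed as higher in 3 of the 18 alternatives, quantile normalization and the length adjustment with and without the block. Nusap1 did so only with the length adjustment and the block together. Racgap1, the partner of Kif23 in centralspindlin, rose from 17.8 ± 1.42 to 21.9 ± 0.555 RPKM (SD, n = 3; adjusted p = 0.0127), and did not pass without siTet1/Tet2 library 2 (adjusted p = 0.0562). Ect2, the exchange factor that centralspindlin recruits to switch on RhoA, was at 7.89, 9.12 and 8.90 RPKM and at 9.08, 8.25 and 8.96 RPKM. The groups overlapped (log2 fold change 0.02, standard error 0.08, adjusted p = 0.863). Anln, the scaffold of the contractile ring, was at 11.5, 12.1 and 15.0 RPKM in the controls and 11.9, 12.2 and 13.0 RPKM after knockdown, also within the control range (log2 fold change -0.04, standard error 0.10, adjusted p = 0.75).

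The 2 chromosome proteins pointed in opposite directions. Mki67 encodes Ki-67, which coats mitotic chromosomes and is the usual marker of proliferating cells. It was at 11.8, 13.6 and 20.0 RPKM in the controls and at 22.4, 18.8 and 25.6 RPKM after siTet1/Tet2. Control library 3 lay above knockdown library 2, so the groups overlapped even though the gene passed (log2 fold change 0.55, standard error 0.18, adjusted p = 0.0378). Its adjusted p was 0.102 and 0.114 without control library 1 or 2, 0.0946 and 0.105 without siTet1/Tet2 library 1 or 3, and 0.00321 with the replicate block. Over all alternatives the adjusted p ran from 0.000191 to 0.336. Top2a, the topoisomerase that untangles sister chromatids, was at 44.1, 47.7 and 57.6 RPKM and at 40.7, 39.7 and 44.2 RPKM. A single value, of knockdown library 3, kept the groups from separating (log2 fold change -0.25, standard error 0.10, adjusted p = 0.0712). The gene passed as lower with the block (adjusted p = 0.0153), without control library 1 (adjusted p = 0.0271), and with the length adjustment and the block together.

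Transcript length moved with the spread between libraries and, among mitosis genes, with the fold change. Control library 3 and siTet1/Tet2 library 3 read higher than their co-replicates for long transcripts. Across the 45 genes, Spearman's rho between that difference and the length of the longest coding transcript was 0.548 and 0.422, and over 12542 genes tested it was 0.553 and 0.362. The other libraries leaned the opposite way. Over the 12542 genes, rho was -0.512 and -0.28 for control libraries 1 and 2, and -0.197 and -0.272 for siTet1/Tet2 libraries 1 and 2. Each library is set against its co-replicates, so the values of a group depend on each other. The genes of one library share its depth and preparation and are not independent replicates. The log2 fold change was lower for longer mitosis genes (rho = -0.362; -0.075 over all genes). Among the 15 shortest (692 to 2405 bases) 5 were higher and 2 lower, among the middle 15 (2489 to 3674 bases) 7 were higher and 0 lower, and among the 15 longest (3892 to 11130 bases) only Mki67 was higher and 0 were lower. Over all genes tested, of any length, 14.7% were higher and 29.8% lower. After a trend over length was taken from each library, an alternative chosen after the data were seen, 19 mitosis genes were higher and 2 lower, against 22.9% and 26.8% of all genes. The part of length in the fold changes was not otherwise tested.

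**Figure D4:**
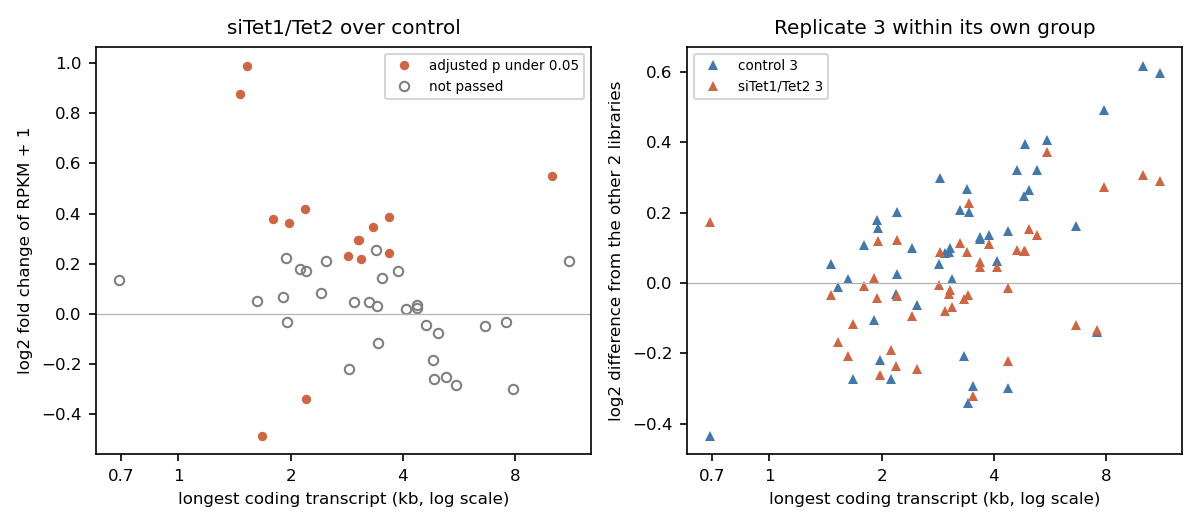
Left, log2 fold change of RPKM + 1 of the 45 mitosis genes against the length of the longest coding transcript (kb, log scale; filled, adjusted p under 0.05); right, log2 difference of replicate 3 of each group from the other 2 libraries of that group. Every gene that passed other than Mki67 lies under 4 kb, and control library 3 reads higher for the longest transcripts.

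Other genes of mitosis resembled all genes in their median. From lists of 99 further genes, 98 were tested, of which 9 (9.18%) were higher and 21 (21.4%) lower, both shares under those of all genes tested (14.7% and 29.8%). Their median log2 fold change was -0.10, close to that of all genes. The split moved with scaling, as did that of all genes. With quantile normalization 22 were higher and 11 lower (27.2% and 19.8% of all genes). When libraries were rescaled to the same sum, 3 were higher and 21 lower (11.5% and 33% of all genes). Among 34 other kinetochore and centromere genes 2 were higher (5.88%) and 6 lower (17.6%). Cenpo, a subunit of the constitutive centromere network, was at 12.3, 11.8 and 12.6 RPKM in the controls and 18.7, 17.5 and 16.7 RPKM after siTet1/Tet2 (log2 fold change 0.49, standard error 0.07, adjusted p = 0.000742). Cenpk, of the same network, was at 6.27, 6.68 and 5.22 RPKM and at 3.39, 3.63 and 3.84 RPKM (log2 fold change -0.61, standard error 0.10, adjusted p = 0.00193). The network that binds Cenpa chromatin thus had members in both directions. Among 26 other spindle and cytokinesis genes 5 were higher (19.2%) and 5 lower (19.2%). They ranged from Numa1, which tethers microtubules at the poles (25.7 to 36.2 RPKM on average, log2 fold change 0.48, adjusted p = 0.00236), to Psrc1, a microtubule-binding protein (8.14 to 4.82 RPKM, log2 fold change -0.65, adjusted p = 0.000435). Of 18 condensin and cohesin genes none (0 genes) was higher and 4 (22.2%) were lower, Smc2, Smc3, Smc4 and the cohesin regulator Pds5b. Pds5b had the largest decrease of that list (log2 fold change -0.54, adjusted p = 0.00977) and Smc2 the smallest of those that passed (log2 fold change -0.45, adjusted p = 0.032). Of 20 other G2/M regulators, 2 (10%) were higher and 6 (30%) lower, from Fam64a (9.71 to 13.4 RPKM, log2 fold change 0.43, adjusted p = 0.00421) to the APC/C subunit gene Cdc27 (21.2 to 14.3 RPKM, log2 fold change -0.53, adjusted p = 0.00536).

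**Figure D5:**
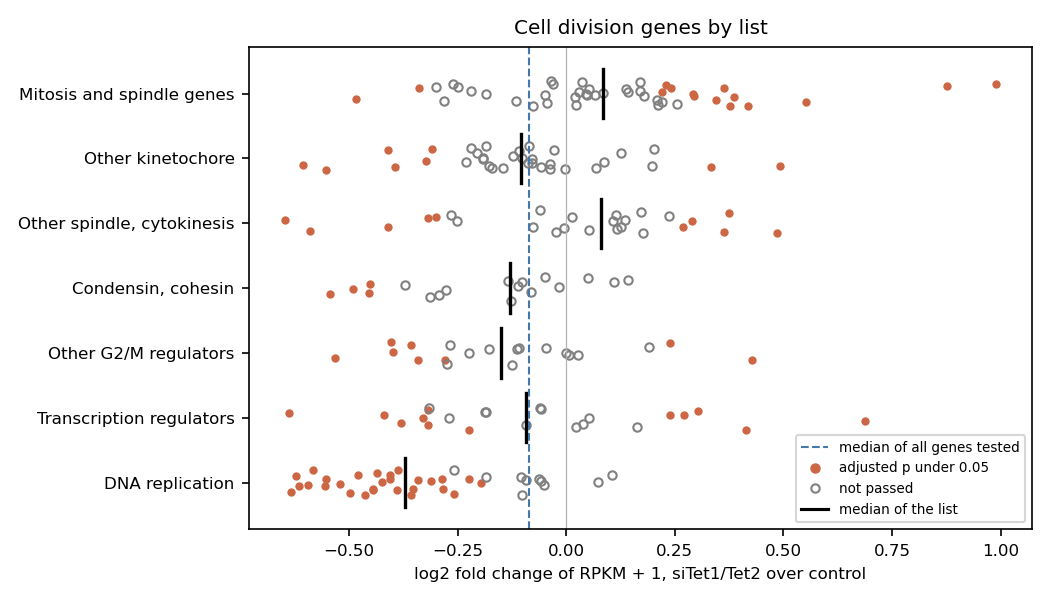
Log2 fold change of RPKM + 1 (siTet1/Tet2 over control) of each tested gene in 7 lists of cell division genes, with the median of each list as a black bar and the median of all genes tested as a dashed line; filled points passed an adjusted p under 0.05. The mitosis and spindle genes spread around 0.08, whereas the DNA replication genes lie mostly under 0, around -0.37.

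Genes of DNA replication, which are transcribed at the G1/S transition, were mostly lower. Of 38 such genes, 28 (73.7%) were lower and none (0 genes) was higher (median log2 fold change -0.37). Over all genes tested, 29.8% were lower and 14.7% higher, and no test of this difference in shares was made. With quantile normalization 18 of the replication genes were lower and 1 was higher, against 19.8% and 27.2% of all genes. Pola1, a subunit of DNA polymerase alpha, had the largest decrease, from 9.12, 10.5 and 11.8 RPKM to 5.93, 6.30 and 6.84 RPKM (log2 fold change -0.63, standard error 0.10, adjusted p = 0.00157). The smallest that passed was that of Rrm2, a subunit of ribonucleotide reductase (37.7 to 32.8 RPKM on average, log2 fold change -0.20, adjusted p = 0.0343). It did not pass without either control library 1 or 2 or siTet1/Tet2 library 1 or 2 (adjusted p of 0.082, 0.1, 0.136 and 0.0778). The summed RPKM of the list was 1118, 1076 and 993 in the controls and 858, 910 and 848 after siTet1/Tet2. The sum over the 45 mitosis genes divided by the sum over the replication genes was 0.593, 0.627 and 0.703 in the controls and 0.884, 0.825 and 0.877 after knockdown. This ratio within a library does not change when a library is multiplied by a common factor, and every knockdown library exceeded every control.

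Transcription regulators of the cell cycle, among them those that act on G2/M promoters, were mixed. Of 23 transcription regulators of the cell cycle 5 (21.7%) were higher and 7 (30.4%) lower, with a median of -0.09. Over all genes tested, 14.7% were higher and 29.8% lower, so the lower share was close to that of all genes. With quantile normalization 6 were higher and 2 lower (27.2% and 19.8% of all genes). With libraries rescaled to the same sum, 2 were higher and 8 lower (11.5% and 33% of all genes). Foxm1, which drives many G2/M genes, was at 6.98, 7.47 and 8.26 RPKM in the controls and 6.91, 7.31 and 7.42 RPKM after siTet1/Tet2. The groups overlapped (log2 fold change -0.06, standard error 0.09, adjusted p = 0.604). Mybl2, the B-MYB gene, was at 3.78, 3.80 and 4.11 RPKM and at 2.92, 3.56 and 2.75 RPKM, lower without overlap but not past the threshold (log2 fold change -0.27, standard error 0.10, adjusted p = 0.0574), which it passed without siTet1/Tet2 library 2 (adjusted p = 0.0327). Nfya, the DNA-binding subunit of NF-Y, had the largest increase of the list. It was at 34.9, 34.9 and 35.5 RPKM in the controls and at 59.3, 55.0 and 57.2 RPKM after knockdown (log2 fold change 0.69, standard error 0.06, adjusted p = 4.29e-05). Its partner gene Nfyb was lower (7.08 to 5.18 RPKM on average, adjusted p = 0.0192), and Nfyc did not pass (adjusted p = 0.654). Trp53, the p53 gene, had the largest decrease, from 42.9, 41.9 and 40.9 RPKM to 25.0, 27.1 and 27.7 RPKM (log2 fold change -0.64, standard error 0.06, adjusted p = 0.000104). Of the pocket proteins that can sit in the DREAM complex, Rbl1 fell from 20.5 to 15.1 RPKM (adjusted p = 0.00157) and Rbl2 rose from 9.84 to 13.5 RPKM (adjusted p = 0.00203). Of the other DREAM genes listed, Lin54, which encodes the CHR-binding subunit, and Lin9 were lower (adjusted p = 0.0357 and 0.0215), calls lost with quantile normalization (adjusted p of 0.229 and 0.106) and without control library 2 (0.132 and 0.0786), siTet1/Tet2 library 1 (0.0518 and 0.0824) or siTet1/Tet2 library 2 (0.128 and 0.0706). Tfdp1 and Tfdp2 were higher (log2 fold change 0.24 and 0.30, adjusted p = 0.0193 and 0.0352). Lin37, Lin52, Rbbp4, E2f4 and E2f5 did not pass. Of the other E2F genes listed, E2f2 was higher (adjusted p = 0.0294), E2f1 and E2f8 were lower (adjusted p = 0.0492 and 0.0159), and E2f3 and E2f7 did not pass. Apart from Foxm1, Mybl2, Nfya and Trp53, the regulators named here, with Smc3 and Smc4, were singled out after their values were seen.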

How the data were processed

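RNA-seq libraries of total RNA were read as paired ends on an Illumina HiSeq. According to the methods, the authors trimmed adaptors, mapped reads to GRCm38 and estimated abundance with DNASTAR Lasergene. The authors deposited 1 table of RPKM values (36915 rows), which the methods call FPKM. How strand and multiply mapped reads were handled was not given in the sources used here. The p-values of the authors' own comparison in that table were not used.

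Where a symbol occurred repeatedly (37 symbols), its most abundant row was used. Genes averaging 0.1 RPKM or more were tested on log2(RPKM + 1) by a two-sided test in limma (version 3.58.1, R version 4.3.3; lmFit, eBayes with trend) and Benjamini-Hochberg adjustment. An exact permutation test of 3 libraries against 3 cannot give a p under 0.1. On simulated data with the layout of this comparison (13266 genes), 59 of 100 genes changed by 0.5 on the log2 scale were called. So were 95 of 100 changed by 1, and 6 of 13066 unchanged ones. The changed genes were few and above a minimum level, with noise independent between genes. In the data 1953 genes were higher and 3952 lower, so these rates do not give the power or the false calls of the comparison itself. The mitosis genes and all lists were chosen with earlier results of these data known. Those named with full values are the leads of each role fixed by hand, the 3 largest increases and decreases, the extremes of each other list among genes that passed, and Foxm1, Mybl2 and Trp53.

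Library depth was estimated from the steps of low RPKM values, at 32400000 to 38600000 reads. Since only 37.1% to 46.9% of these values came within 0.1 of whole reads (20.0% by chance), no count test was run. The fewest reads estimated for a mitosis gene were 119, for Cks2 in control library 3. Lengths and the 50-base stretches shared with other transcripts are from GENCODE M21, and 11 mitosis genes shared over 5% of them. These were Ccnb1, Kif20a, Cks2, Prc1, Ube2c, Kif4, Ccna2, Cdc20, Plk1, Racgap1 and Ndc80. Motifs were searched in Python 3.11.15 (numpy 2.4.6, pandas 2.3.3), and figures were drawn with matplotlib 3.10.9.

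The labels number replicates 1 to 3 in both groups. Same-numbered libraries deviated together across genes (r = 0.149, 0.117 and 0.462), and the numbers were also fitted as a block. However, control 1 with siTet1/Tet2 2 reached 0.332 and control 2 with siTet1/Tet2 1 reached 0.205. Only the libraries numbered 3 matched each other best, and no source says what a number stands for. The alternatives were pseudocounts of 0.1 and 0.01, no minimum or one of 1 RPKM, equal sums (TPM), median ratio scaling, quantile normalization, eBayes without trend, the block, summed duplicate rows, each library left out, and a length adjustment with and without the block.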

Additional observations from a re-analysis of the deposited data

How the results depend on the processing

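Pseudocounts, a minimum of 1 RPKM, eBayes without trend and summing duplicate rows left 13 mitosis genes higher and 2 lower. Over all genes these settings gave 14.5% to 16.2% higher and 29.4% to 30.3% lower. No mitosis gene reversed (0 reversals among called genes), 5 passed in every alternative and 19 in none. Without a minimum on RPKM, 9 were higher and 1 lower (3.34% and 6.82% of all genes), with 36870 genes then in the adjustment. Higher mitosis genes numbered 7 when libraries were rescaled to the same sum (11.5% of all genes), and lower ones 1 with quantile normalization (19.8%). Across libraries left out in turn, 7 to 15 were higher and 1 to 4 lower (10.6% to 15.2% and 22.7% to 31.2% of all genes). The median log2 fold change of the mitosis genes was 0.025 with equal sums, 0.16 with median ratio scaling, 0.22 with quantile normalization and 0.13 after length adjustment, alone or with the block. The median of all genes moved along (-0.16, -0.02, 0.06 and -0.02), so the difference stayed between 0.13 and 0.21, and was 0.08 without a minimum.

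With the replicate block, 14 mitosis genes were higher and 4 lower (16.9% and 33.7% of all genes), and no call was lost. With the length adjustment, which was added after the data were seen, and the block together, 21 were higher and 3 lower (24.2% and 28.4% of all genes). For the lists that follow, the shares over all genes in these settings are those given with the mitosis genes. For the other mitosis genes, the block gave 10 higher and 30 lower against 9 and 21, and leaving out libraries gave 15 to 28 lower. Of these genes, 4 were higher and 12 lower without a minimum, 3 higher with equal sums, 22 higher and 11 lower with quantile normalization, and 17 higher after length adjustment with or without the block. Leaving out libraries gave 4 to 9 higher, with 4 for control library 1 or 2 or siTet1/Tet2 library 1 or 2. For transcription regulators, equal sums gave 2 higher, no minimum 3 lower and quantile normalization 2 lower, and leaving out libraries gave 2 to 4 higher (3 without control library 1 or 2 or siTet1/Tet2 library 1, 2 without siTet1/Tet2 library 2) and 3 to 8 lower (3 without control library 2 or siTet1/Tet2 library 1, 4 without siTet1/Tet2 library 2). For DNA replication genes, 15 were lower without a minimum, 18 lower and 1 higher with quantile normalization, and 1 higher after length adjustment. The cause of these shifts was not tested, apart from the centring that each scaling sets by its construction. The deposited values carry no counts, so depth limits are known only by estimate.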
